A study of Mus musculus with 20 samples.

Results

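The 10 genes described here are parts of the circadian clock or its direct transcriptional outputs: the activators Bmal1 and Npas2, the repressors Per1, Per2, Per3, Ciart, Nr1d1 and Nr1d2, and the output factors Dbp and Tef. They were taken by gene symbol from a count table of 26619 genes, and all 10 were found in it and passed the filter on low counts, which left 17893 genes for testing. The table holds RNA from a piece of distal colon (DC) near the anal end of 20 male C57BL/6 mice, 5 per diet. Every animal received the Total Western Diet (TWD), a purified diet modelled on average nutrient intake in the United States, for 6 weeks after weaning. For the next 3 weeks they received the TWD holding 0, 2, 5 or 10% resistant potato starch (RPS) by weight, named raw potato starch in the sample labels. Mice lived under a 12 h light and 12 h dark cycle, and the hour at which each mouse was killed is not given in the sources used here. Mice are named by their title codes, and diets follow the description label. For mice RS10_717, RS10_725 and RS10_748 the treatment label gives another RPS level, namely 2, 5 and 10%.

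The clock of most cells is a feedback loop. BMAL1, paired with CLOCK or its relative NPAS2, binds E-box sequences and switches on the Per and Cry genes, Ciart, Nr1d1, Nr1d2, Dbp and Tef. PER and CRY proteins and CIART then hold BMAL1 back, while the nuclear receptors encoded by Nr1d1 and Nr1d2 (REV-ERB alpha and beta) repress Bmal1 and Npas2, so the activator transcripts and the output transcripts peak at opposite times of day. DBP and TEF are transcription factors of the PAR bZIP family that bind D-box sequences in genes such as the Per genes. In the gut the clock is known to time digestion, nutrient uptake and epithelial renewal, and meals can shift it.

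Total counts were 18.43 to 34.97 megacounts per mouse, with medians of 32.52, 27.3, 29.85 and 25.98 megacounts at 0, 2, 5 and 10% RPS. The smallest 0% RPS library, at 31.25 megacounts, was larger than the largest at 2, 5 and 10% RPS (31.13, 30.37 and 26.6 megacounts). The part of total count in the diet comparisons was not tested. The 7 colon epithelium markers summed to between 11760 and 18120 CPM (the reads of a gene per megacount of its TMM-scaled library) and the 6 smooth muscle markers to between 5575 and 12160 CPM, so the markers of both were present in every library. In such bulk samples, fewer cells of a type and less RNA per cell cannot be told apart. The libraries of mouse RS10_721 (5% RPS) and mouse RS10_784 (10% RPS) stood apart, because 7 pancreas markers summed to 4781 and 429 CPM there and to between 6.51 and 18.0 CPM in the other 18. The diet, slope and correlation results were also computed without these 2 mice.

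The promoters of 5 of these genes are shown because they carry motifs of the loop outside annotated untranslated regions. The 250 bases before the start of the Ensembl canonical transcript of each of the 10 genes, which for some lies inside the span of the gene because another transcript starts upstream, were read from GRCm39 and searched on both strands for the E-box CACGTG, the D-box TTATGTAA or TTACGTAA, and the element bound by REV-ERB and ROR receptors, TAGGTCA or TGGGTCA. Below, sequence runs 5′ to 3′ on the strand of the gene, and capitals mark motifs.
Tef, chr15:81695365-81695614: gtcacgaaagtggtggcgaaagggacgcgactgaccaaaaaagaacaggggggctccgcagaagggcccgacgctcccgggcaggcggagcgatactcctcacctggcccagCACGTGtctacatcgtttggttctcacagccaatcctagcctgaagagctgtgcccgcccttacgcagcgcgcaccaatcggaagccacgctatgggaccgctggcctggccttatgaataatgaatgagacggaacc
Per1, chr11:68989018-68989267: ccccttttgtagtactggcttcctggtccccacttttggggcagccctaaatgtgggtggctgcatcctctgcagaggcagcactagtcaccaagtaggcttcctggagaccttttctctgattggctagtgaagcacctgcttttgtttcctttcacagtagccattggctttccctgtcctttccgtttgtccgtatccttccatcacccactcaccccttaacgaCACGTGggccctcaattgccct
Ciart, chr3:95789564-95789644: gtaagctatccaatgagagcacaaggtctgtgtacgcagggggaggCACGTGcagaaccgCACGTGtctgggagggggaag
Per2, chr1:91387070-91387296: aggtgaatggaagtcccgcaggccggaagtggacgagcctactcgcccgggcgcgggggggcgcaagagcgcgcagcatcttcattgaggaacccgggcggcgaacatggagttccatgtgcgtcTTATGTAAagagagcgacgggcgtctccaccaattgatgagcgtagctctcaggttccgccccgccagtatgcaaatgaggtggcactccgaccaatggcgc
Per3, chr4:151129141-151129390: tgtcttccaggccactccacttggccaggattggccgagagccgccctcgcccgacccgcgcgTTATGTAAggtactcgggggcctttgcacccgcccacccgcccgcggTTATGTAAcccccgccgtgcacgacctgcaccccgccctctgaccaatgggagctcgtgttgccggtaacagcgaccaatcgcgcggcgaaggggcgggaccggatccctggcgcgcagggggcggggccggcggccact

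The E-box was found before 3 of the 10 genes (Tef, Per1 and Ciart, with 3 copies before Ciart, of which 2 lie in the stretch printed) and in 6.92% of 17822 promoters of the same length. The D-box was found before Per2 and, in 2 copies, before Per3, and in 0.75% of all promoters. The REV-ERB and ROR element was found only before Dbp, in 2 copies, and in 4.97% of all promoters. No motif of these letters was in the windows of Nr1d1, Nr1d2, Npas2 or Bmal1, which says nothing of sites elsewhere. A match is a description of the letters and not a measured binding site.

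Levels are compared between genes per kilobase of exon. Nr1d1 was the most abundant of the 10, with a mean of 68.7 CPM per kilobase over the 20 mice and no mouse under 37.9, a value above every mouse's level of the other 9 genes. Tef (16.9), Dbp (13.1), Nr1d2 (11.3), Per2 (10.1) and Per1 (9.48 CPM per kilobase) followed, then Npas2 (6.91), Per3 (4.28), Ciart (3.93) and Bmal1 (3.37). Below Nr1d1 each neighbour in this order overlapped the next over the mice.

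Bmal1 (gene ID ENSMUSG00000055116, chr7:112806152-112914735, plus strand), the obligate partner of the activator pair, is given first. In every list of values below, the 0% RPS mice are RS10_701, RS10_703, RS10_704, RS10_707 and RS10_708, the 2% mice RS10_709, RS10_712, RS10_715, RS10_716 and RS10_748, the 5% mice RS10_717, RS10_718, RS10_719, RS10_721 and RS10_724, and the 10% mice RS10_725, RS10_727, RS10_729, RS10_731 and RS10_784, in this order. Bmal1 measured 37.5, 53.4, 36.5, 35.6 and 16.5 CPM at 0% RPS, 28.6, 16.2, 52.7, 36.2 and 24.5 CPM at 2%, 26.1, 21.2, 19.4, 67.2 and 25.4 CPM at 5%, and 89.8, 60.9, 38.5, 28.2 and 66.6 CPM at 10%. Each diet held mice with low and mice with high Bmal1. At 10% RPS 3 mice lay above every 0% mouse, and the groups overlapped.

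Npas2 (ENSMUSG00000026077, chr1:39232705-39402323, plus strand), the alternative partner of BMAL1, measured 38.4, 45.6, 37.3, 33.6 and 15.2 CPM at 0% RPS, 36.0, 21.8, 40.5, 43.1 and 22.4 CPM at 2%, 33.8, 20.7, 23.6, 54.8 and 37.1 CPM at 5%, and 62.4, 51.6, 38.4, 26.7 and 74.1 CPM at 10%. As for Bmal1, 3 of the 10% mice lay above all 0% mice and the groups overlapped.

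Among the outputs, Dbp (ENSMUSG00000059824, chr7:45354512-45359627, plus strand) measured 37.9, 9.53, 40.1, 77.4 and 114 CPM at 0% RPS, 48.1, 82.9, 10.6, 35.5 and 47.8 CPM at 2%, 46.5, 61.9, 78.3, 16.6 and 57.4 CPM at 5%, and 3.77, 10.3, 44.2, 59.6 and 23.8 CPM at 10%. Mouse RS10_708 had 30.3 times the Dbp of mouse RS10_725, the widest range of the 10 genes. The mice with the 5 lowest Dbp values and those with the 5 highest Bmal1 values had 4 in common. The 6 lowest Dbp values, all at or under 23.8 CPM, came from the same 6 mice as the 6 highest Bmal1 values, all at or over 52.7 CPM. These 6 mice came from every diet, with 1 each at 0, 2 and 5% RPS and 3 at 10% RPS. They include mouse RS10_725, at 5% RPS by the treatment label, and mice RS10_721 and RS10_784, with pancreas transcripts. Tef (ENSMUSG00000022389, chr15:81686622-81711064, plus strand) ran from 43.9 CPM in mouse RS10_725 to 244 CPM in mouse RS10_712. Its medians were 141, 137, 163 and 83.6 CPM at 0, 2, 5 and 10% RPS.

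**Figure D1:**
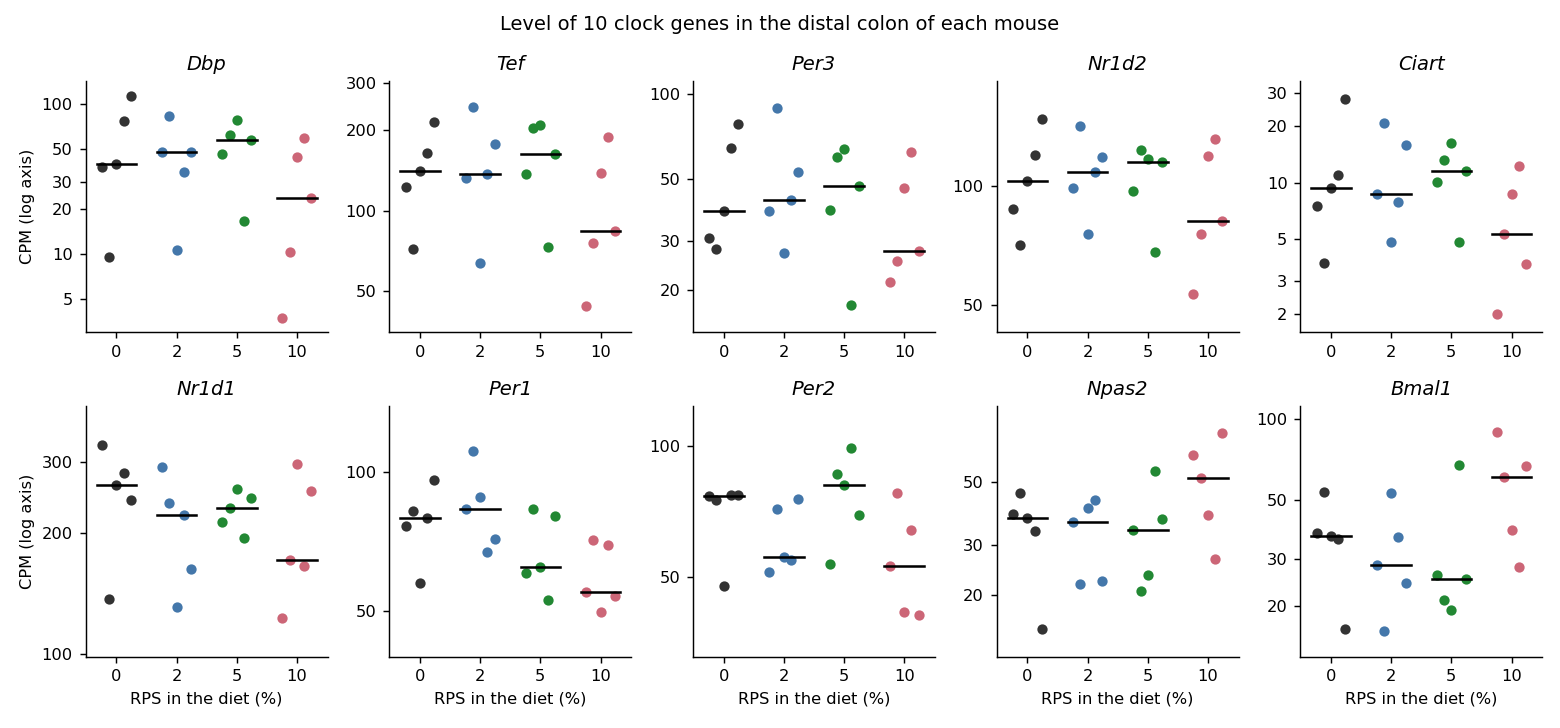
CPM of each of the 10 clock genes (log axis) against the percent of RPS in the diet, with a point per mouse and a black bar at the median of the 5 mice. Every diet holds low and high Dbp, from 9.53 to 114 CPM at 0% RPS and from 3.77 to 59.6 CPM at 10% RPS, and no gene separates a diet from the 0% mice.

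Of the repressors, Ciart (ENSMUSG00000038550, chr3:95785815-95789991, minus strand) came closest to Dbp in range. It measured 7.57, 3.73, 9.32, 11.0 and 27.7 CPM at 0% RPS, 8.69, 20.7, 4.87, 7.87 and 15.8 CPM at 2%, 10.0, 13.2, 16.2, 4.85 and 11.5 CPM at 5%, and 2.02, 5.33, 8.66, 12.3 and 3.69 CPM at 10%. The highest mouse had 13.7 times the Ciart of the lowest, and both were the same mice as for Dbp. Per3 (ENSMUSG00000028957, chr4:151081373-151129140, minus strand), a PERIOD protein gene, ran from 17.6 CPM in mouse RS10_721 to 89.3 CPM in mouse RS10_712, a 5.06-fold range. Nr1d2 (ENSMUSG00000021775, chr14:4230545-4266624, plus strand) ran from 53.3 to 147 CPM, a 2.76-fold range, with its extremes in the same mice as those of Dbp.

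Nr1d1 (ENSMUSG00000020889, chr11:98658752-98666188, minus strand), the sister receptor gene, followed another order. It measured 332, 137, 264, 281 and 241 CPM at 0% RPS, 293, 237, 131, 222 and 163 CPM at 2%, 213, 231, 258, 194 and 244 CPM at 5%, and 123, 171, 298, 166 and 255 CPM at 10%. The 3 highest Nr1d1 levels, in mice RS10_701, RS10_729 and RS10_709, stood beside 37.9, 44.2 and 48.1 CPM of Dbp, near its median of 45.4 CPM. The 4 lowest, in mice RS10_725, RS10_715, RS10_703 and RS10_748, stood beside 3.77, 10.6, 9.53 and 47.8 CPM of Dbp.

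Per1 (ENSMUSG00000020893, chr11:68986035-69002300, plus strand) and Per2 (ENSMUSG00000055866, chr1:91343700-91387069, minus strand), the remaining PERIOD genes, varied least. Per1 measured 76.3, 82.4, 57.4, 79.3 and 96.1 CPM at 0% RPS, 83.1, 111, 88.3, 67.2 and 71.7 CPM at 2%, 60.4, 83.2, 62.3, 52.9 and 80.3 CPM at 5%, and 55.1, 71.3, 49.8, 69.6 and 53.9 CPM at 10%. Here 3 of the 10% mice lay below every 0% mouse. Per2 measured 77.0, 75.3, 47.7, 77.0 and 77.1 CPM at 0% RPS, 51.4, 71.9, 55.6, 54.7 and 75.7 CPM at 2%, 53.7, 86.2, 81.6, 99.2 and 69.3 CPM at 5%, and 53.1, 78.2, 41.6, 64.0 and 41.0 CPM at 10%. Its 0% mice lay within 75.3 to 77.1 CPM apart from mouse RS10_704, and its highest value was in mouse RS10_721, where Per3 was lowest.

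The spread within diets was set against that of all tested genes. The pooled within-diet SD of log2 CPM was 1.27 for Dbp, 0.90 for Ciart, 0.69 for Tef, 0.67 for Per3, 0.66 for Bmal1 and 0.56 for Npas2, against a median of 0.22 over all 17893 genes. Dbp, Ciart, Tef, Per3, Bmal1 and Npas2 lay at percentiles 99.3, 98.4, 96.4, 96.1, 95.8 and 91.7 of all genes. Nr1d1 (SD 0.43), Nr1d2 (0.41), Per2 (0.33) and Per1 (0.27) lay at percentiles 82.1, 80.4, 70.6 and 60.9. Among genes within 0.5 log2 units of their own level, all 10 lay at percentile 92.7 or above. The diets accounted for 7.6% (Per3) to 37.9% (Per1) of the variance of a clock gene, with a median of 18.0% against 16.3% over all tested genes.

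The clock genes were then compared between diets. At 10% RPS against 0% RPS, 0 of the 10 were called by the edgeR quasi-likelihood test (adjusted p of at most 0.05 and at least a 1.5-fold change), where 0.0391% of all tested genes were called. At 5 and 2% RPS 0 were called too, where 0% of all genes were. Per1 at 10% RPS was the only clock gene with an unadjusted p under 0.05, a mark that 15.2% of all genes passed at 10%, 9.19% at 5% and 1.41% at 2% RPS. DESeq2 also called 0 of the 10 at each level, where it called 1.21, 0.156 and 0.00386% of genes. The 3 comparisons share the same 0% RPS mice.

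At 10% RPS the output and repressor genes had lower estimates and the activators higher ones. The log2 changes were -0.97 ± 0.71 (SE) for Dbp, -0.89 ± 0.55 for Ciart, -0.43 ± 0.41 for Tef, -0.39 ± 0.41 for Per3, -0.39 ± 0.16 for Per1, -0.35 ± 0.19 for Per2, -0.31 ± 0.25 for Nr1d1 and -0.20 ± 0.25 for Nr1d2, and 0.58 ± 0.33 for Npas2 and 0.66 ± 0.41 for Bmal1. Every adjusted p (edgeR, over all genes) was at least 0.247, so none of these changes passed the test. The sizes turned on single mice: without mouse RS10_708 the log2 change was -0.54 for Dbp, -0.31 for Ciart, -0.24 for Tef, -0.14 for Per3 and -0.05 for Nr1d2, and without mouse RS10_731 it was -1.44, -1.27, -0.75, -0.67 and -0.36. Their median was -0.37 against -0.02 over all genes, and 8 of 10 were below 0. Since these genes vary together from mouse to mouse, their signs are not separate observations. At 5% RPS the 10 estimates ran from -0.21 (Per1) to 0.14 (Per2 and Tef) with a median of -0.08, and at 2% RPS from -0.31 (Dbp) to 0.11 (Per1) with a median of -0.04.

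**Figure D2:**
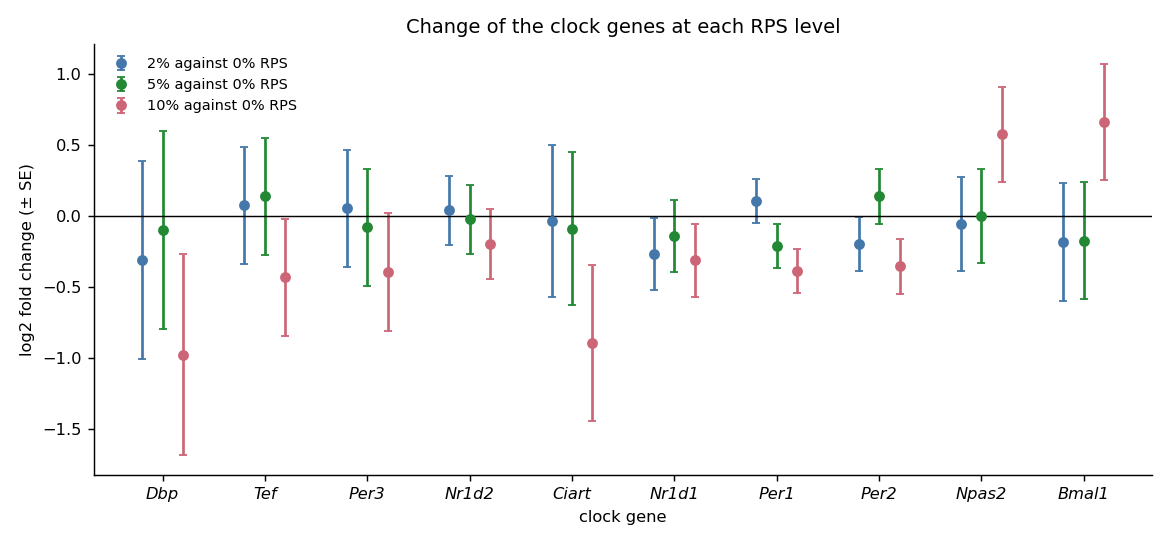
Log2 fold change against 0% RPS (vertical axis) of each clock gene at 2, 5 and 10% RPS, with points at the edgeR estimate and bars of 1 SE. The 10% estimates reach -0.97 for Dbp and 0.66 for Bmal1 with SEs of 0.71 and 0.41, and no clock gene was called at any level.

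Over the whole range of RPS, Per1 had the clearest slope. Its estimate was -0.046 ± 0.015 (SE) log2 units per 1% RPS, which did not pass (edgeR adjusted p of 0.0936). Nor did any other clock gene, so 0 of 10 passed and 1 had an unadjusted p under 0.05, where 2.1% of all genes passed and 19.1% had such a p. The count of all genes that passed, 375, was 24 without mouse RS10_784, 1148 without mouse RS10_727 and 0 under the treatment label. Without both mice with pancreas transcripts it was 60. DESeq2, by which 6.02% of genes passed, gave Per1 a slope of -0.045 with an adjusted p of 0.0448, and edgeR did so without mouse RS10_704 (adjusted p of 0.0372), while under the treatment label the adjusted p was 0.334 (range over all alternatives 0.0372 to 0.334). The edgeR test of any difference among the 4 diets called 0 clock genes, where it called 0.0727% of all genes. It gave 1 of the 10 an unadjusted p under 0.05, as it did 10.6% of all genes, and DESeq2 called 0 of the 10 where it called 2.01% of genes.

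Per1 also moved with the epithelial markers. Its log2 CPM correlated with the mean log2 CPM of the 7 colon epithelium markers over the 20 mice at r = -0.74 (permutation p of 0.00015, adjusted p of 0.0067 over 90 pairs) and rho = -0.81 (permutation p of 3e-05). Without the 2 mice farthest from the median of the marker score r was -0.82, and with both centred on diet means it was -0.55 (adjusted p of 0.2). The summed level of the 7 markers ran from 11760 to 15470 CPM at 0% RPS, from 12550 to 14650 CPM at 2%, from 13990 to 17530 CPM at 5% and from 13830 to 18120 CPM at 10%. Its part in the slope of Per1 was not tested. No other clock gene had an adjusted p under 0.05 with this score.

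How the clock genes vary together was examined over the 20 mice with log2 CPM. Of the 45 pairs of clock genes, 27 had an adjusted permutation p of at most 0.05, 15 with a positive and 12 with a negative correlation. By Spearman's rho 23 pairs passed, and with each gene centred on its diet mean and mice permuted within diets 23 passed. The pair values share their 20 libraries and each library's scaling, and the smallest p that 100000 permutations can give is 1e-05.

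**Figure D3:**
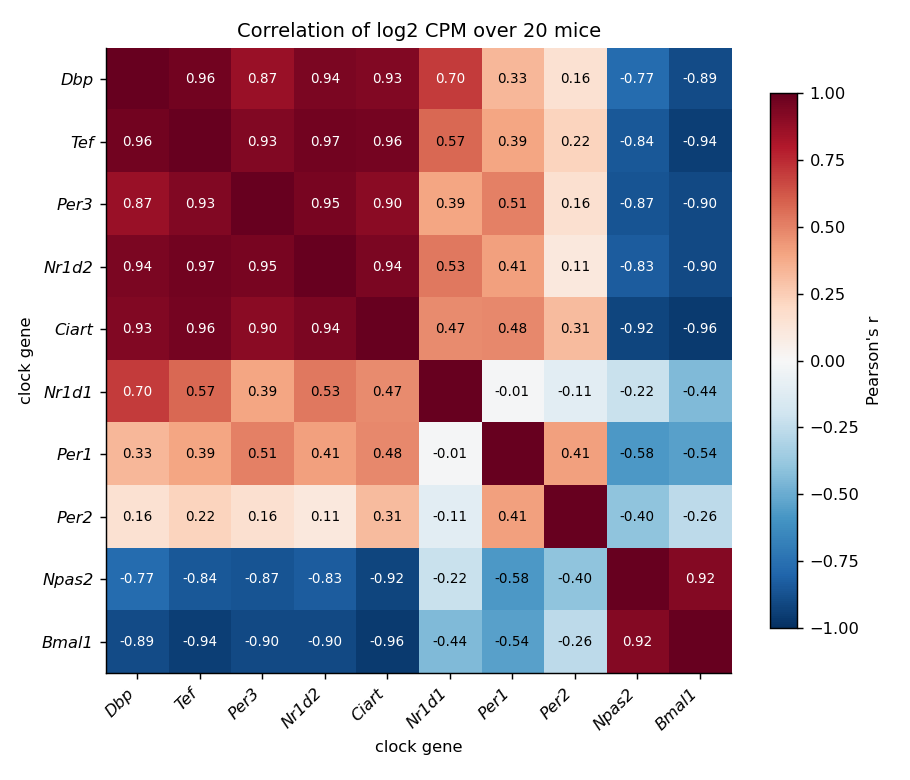
Pearson's r of log2 CPM over 20 mice for every pair of the 10 clock genes, from -1 (blue) to 1 (red). Dbp, Tef, Per3, Nr1d2 and Ciart form a red block with r of 0.87 to 0.97, Npas2 and Bmal1 are blue against all 5, Nr1d1 reaches 0.70 with Dbp, Per1 reaches -0.58 with Npas2, and Per2 is palest, between -0.40 and 0.41.

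Dbp, Tef, Per3, Nr1d2 and Ciart rose and fell as a block. The 10 pairs within this block had r of 0.87 to 0.97 and rho of 0.89 to 0.96, and all passed. Centring on diet means left r at 0.88 to 0.98, and leaving out the 2 mice farthest from the median of the first gene left it at 0.88 to 0.96. The block was drawn from these values, so its counts describe it and test nothing further. Dbp and Tef, both PAR bZIP factors, had r = 0.96 and rho = 0.94, with permutation p of 1e-05 for each (adjusted 2.2e-05 and 2.1e-05). Tef and Nr1d2 had the highest r of any pair, at 0.97.

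Both activators ran opposite to this block. The 10 pairs of Bmal1 or Npas2 with a gene of the block had r of -0.77 to -0.96 and rho of -0.84 to -0.96, and all passed. Ciart and Bmal1 were the most opposed pair, with r = -0.96 and rho = -0.96 (permutation p of 1e-05 for each, adjusted p of 2.2e-05 and 2.1e-05). Without mice RS10_708 and RS10_725 their r was -0.95, and centred on diet means it was -0.95. Dbp and Bmal1 had r = -0.89 and rho = -0.91 (permutation p of 1e-05 for each), and r = -0.87 without mice RS10_703 and RS10_725. The log2 ratio of Dbp to Bmal1 ran from -4.55 in mouse RS10_725 to 2.78 in mouse RS10_708, with medians of 0.13, 0.75, 1.18 and -1.48 at 0, 2, 5 and 10% RPS. Npas2 and Bmal1 moved together, with r = 0.92 and rho = 0.95 (permutation p of 1e-05 for each) and r = 0.91 within diets.

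**Figure D4:**
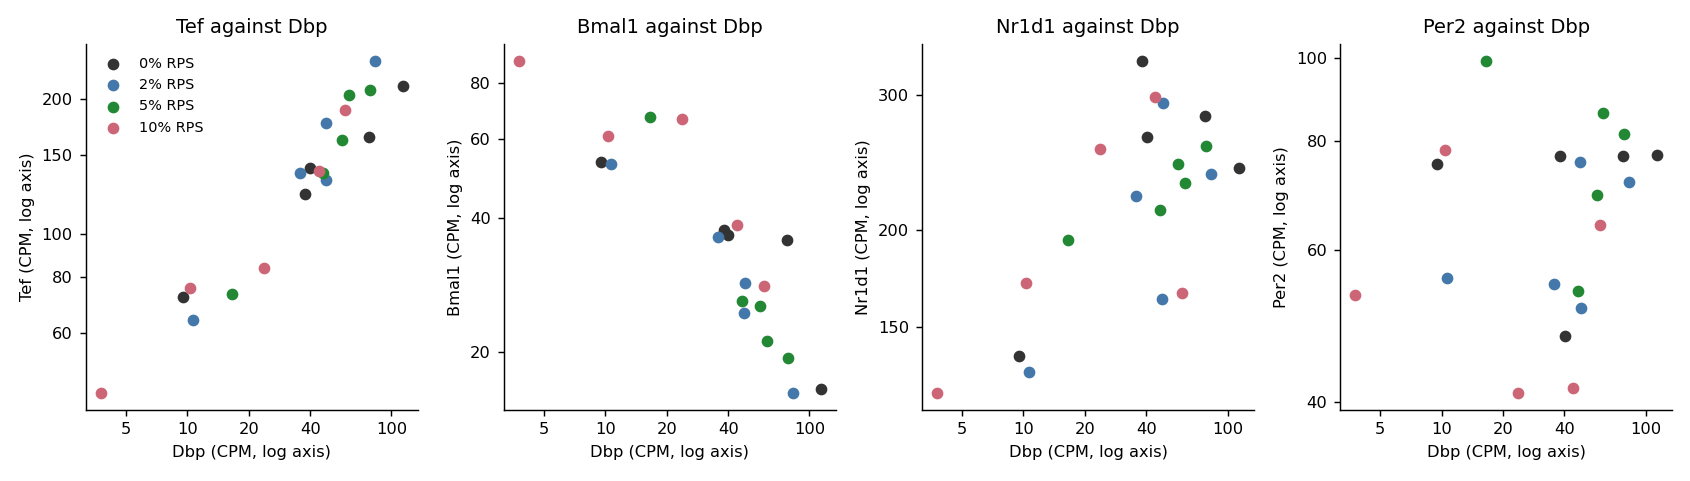
CPM of Tef, Bmal1, Nr1d1 and Per2 (vertical, log axis) against CPM of Dbp (horizontal, log axis), with a point per mouse coloured by diet. Tef climbs with Dbp (r = 0.96) and Bmal1 drops (r = -0.89), Nr1d1 lies between 163 and 332 CPM in all mice with 35.5 CPM of Dbp or more, and Per2 shows no order (r = 0.16).

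Nr1d1 was tied to the block only loosely. With Dbp it had r = 0.70 (permutation p of 0.00066, adjusted p of 0.0013) but rho = 0.45 (permutation p of 0.048, adjusted p of 0.089), and r = 0.50 without mice RS10_703 and RS10_725, the lowest levels of Dbp. With Nr1d2, its closest relative, it had r = 0.53 (permutation p of 0.016, adjusted p of 0.028), rho = 0.35 (permutation p of 0.13) and r = 0.27 without mice RS10_715 and RS10_725. With Tef it had r = 0.57 and rho = 0.35 (permutation p of 0.0083 and 0.13), and r = 0.30 without the same mice. These 3 pairs passed by r and not by rho. Centred on diet means, Nr1d1 passed with Dbp (r = 0.69, permutation p of 0.0053, adjusted p of 0.011) and with Tef (r = 0.56, permutation p of 0.023, adjusted p of 0.044) but not with Nr1d2 (r = 0.53, permutation p of 0.04, adjusted p of 0.075). The other 6 pairs of Nr1d1 did not pass.

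Per1 and Per2 stood further apart. Of the 9 pairs of Per1, 3 passed: r was 0.51 with Per3, -0.58 with Npas2 and -0.54 with Bmal1 (permutation p of 0.022, 0.0077 and 0.014, adjusted p of 0.037, 0.015 and 0.025). Their rho was 0.42, -0.54 and -0.54 (permutation p of 0.067, 0.015 and 0.014), and their r without mice RS10_712 and RS10_729 was 0.47, -0.56 and -0.48. Centred on diet means, none of the 9 passed. None of the 9 pairs of Per2 passed by any of these measures, and their r ran from -0.40 with Npas2 to 0.41 with Per1.

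Every gene was next fitted against the log2 CPM of Dbp of the same mouse with diet in the model, so that only differences within diets count. Of the other 9 clock genes, 7 were called (edgeR, adjusted p of at most 0.05), 5 with a positive and 2 with a negative slope, where 12.3% of all tested genes were called, 6.35% positive and 5.94% negative. Over all genes 2199 were called, and 1159, 1324 and 1368 without mouse RS10_703, RS10_715 or RS10_721. Without both mice with pancreas transcripts 1243 were called. The slope is the log2 change of a gene per doubling of Dbp. It was 0.67 ± 0.07 (SE) for Ciart, 0.52 ± 0.04 for Tef, 0.46 ± 0.06 for Per3, 0.31 ± 0.02 for Nr1d2 and 0.24 ± 0.06 for Nr1d1, and -0.31 ± 0.08 for Npas2 and -0.46 ± 0.06 for Bmal1 (adjusted p between 7.29e-08 for Tef and 0.0201 for Nr1d1). Per1 had a slope of 0.05 ± 0.05 (adjusted p of 0.514) and Per2 of -0.01 ± 0.06 (adjusted p of 0.904). Nr1d1 lost its call without mouse RS10_703, RS10_715 or RS10_725 (adjusted p of 0.0885, 0.0669 and 0.0737) and Npas2 without mouse RS10_721 (adjusted p of 0.0547). Nr1d1 also lost it without the 3 mice whose labels disagree (edgeR adjusted p of 0.0747).

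Against Bmal1 in the same way, 6 of the other 9 were called, 1 with a positive and 5 with a negative slope, where 9.46% of all genes were called, 5.06% positive and 4.39% negative. Over all genes 1692 were called, but 543 without mouse RS10_721, 973 without mouse RS10_715 and 1116 without mouse RS10_712. Without both mice with pancreas transcripts 636 were called. A doubling of Bmal1 went with a log2 change of -1.57 ± 0.23 in Dbp, -1.28 ± 0.10 in Ciart, -0.98 ± 0.08 in Tef, -0.96 ± 0.08 in Per3, -0.57 ± 0.06 in Nr1d2 and 0.77 ± 0.09 in Npas2 (adjusted p from 1.97e-07 for Ciart to 0.000946 for Dbp). Dbp therefore changed over a wider range than Bmal1 did, and Nr1d2 over a narrower one. Nr1d1 (-0.27 ± 0.15, adjusted p of 0.289), Per1 (-0.19 ± 0.08, adjusted p of 0.143) and Per2 (-0.02 ± 0.12, adjusted p of 0.926) were not called. Both fits take their covariate from the same libraries, and they are not separate evidence.

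**Figure D5:**
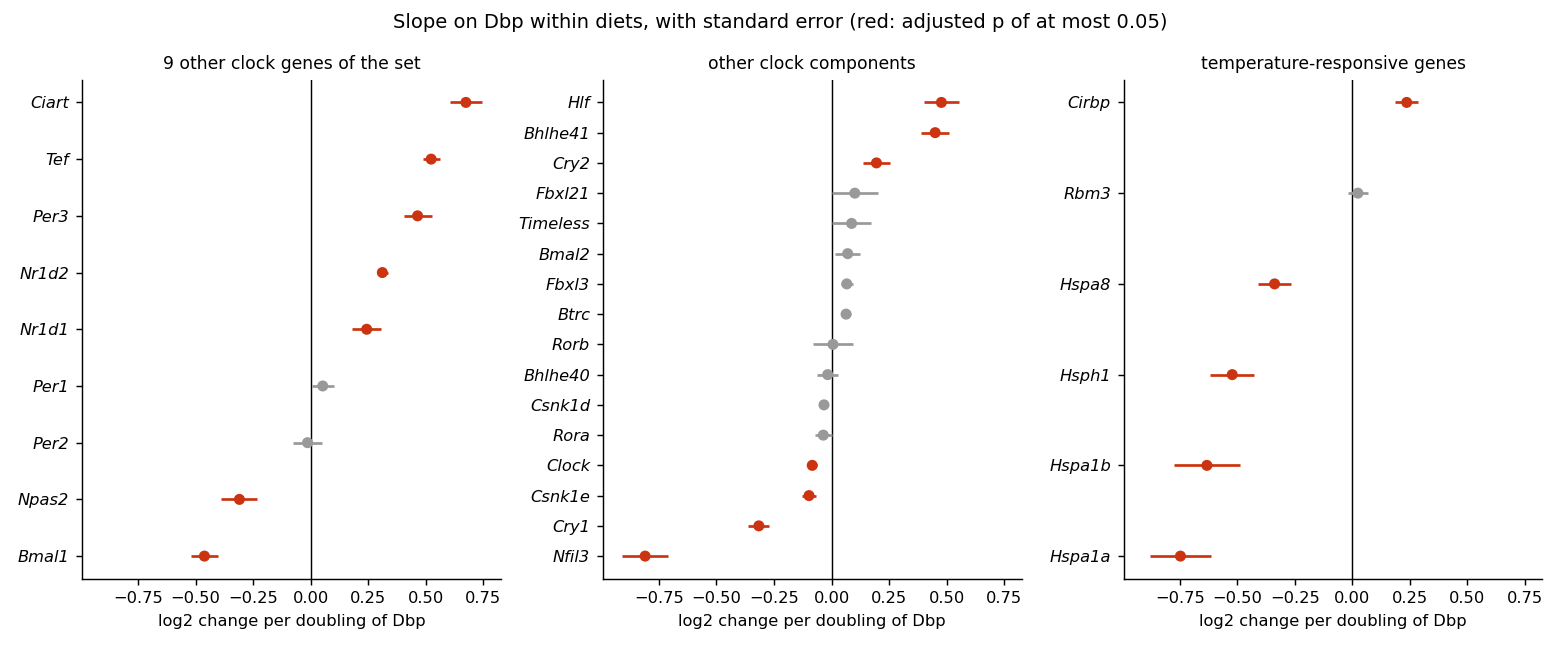
Log2 change per doubling of Dbp within diets (horizontal axis), with points at the edgeR slope and bars of 1 SE, for the other 9 clock genes, 16 further clock components and 6 temperature-responsive genes. Red points have an adjusted p of at most 0.05, and they reach from -0.81 for Nfil3 to 0.67 for Ciart.

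Of 16 further clock components, 7 were called against Dbp, where 12.3% of all genes were, 3 with a positive and 4 with a negative slope, with a median slope of 0.03 against 0.00 over all genes. Hlf, the remaining PAR bZIP factor, rose with Dbp (0.48 ± 0.08), as did Bhlhe41, an E-box binding repressor (0.45 ± 0.06), and Cry2, a CRY repressor (0.20 ± 0.06). Nfil3, a repressor that competes for the D-box, fell by 0.81 ± 0.10 per doubling of Dbp, the steepest slope of the list. Cry1 (-0.32 ± 0.05), the kinase gene Csnk1e (-0.10 ± 0.03) and Clock (-0.08 ± 0.02) also fell. The CRY genes thus had slopes of opposite sign, Cry1 with Bmal1 and Cry2 with Dbp. The other 9, among them Bhlhe40, Rora, Csnk1d and Timeless, were not called. Without mouse RS10_703 or RS10_715 only 4 of the 16 were called.

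Against Bmal1, 6 of the 16 were called, where 9.46% of all genes were, with slopes of 1.53 ± 0.22 for Nfil3, 0.51 ± 0.12 for Cry1, 0.15 ± 0.05 for Clock, -0.40 ± 0.11 for Cry2, -0.89 ± 0.09 for Bhlhe41 and -0.99 ± 0.11 for Hlf. Leaving out mouse RS10_712, RS10_715, RS10_721 or RS10_725 left 4. None of the 16 was called between diets at 10, 5 or 2% RPS or for a trend by edgeR or by DESeq2. By edgeR 2, 2, 0 and 3 of them had an unadjusted p under 0.05, as did 15.2, 9.19, 1.41 and 19.1% of all genes. Without mouse RS10_727 edgeR called 1 of the 16 for the trend, where it called 1148 of 18096 genes.

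Of 11 genes known as clock outputs or clock-timed genes of liver and gut, 4 were called against Dbp, where 12.3% of all genes were. The deubiquitinase gene Usp2 (0.23 ± 0.07) and the sodium-glucose transporter gene Slc5a1 (0.12 ± 0.03) rose with Dbp, and Noct (-0.17 ± 0.05), which encodes nocturnin, and Alas1 (-0.14 ± 0.04), the first enzyme of heme synthesis, fell. Without the 2 mice with pancreas transcripts 1 of the 4 was called, and without mouse RS10_703, RS10_707, RS10_708, RS10_712, RS10_721 or RS10_725 2 were. Against Bmal1, Usp2 (-0.57 ± 0.10) and Slc5a1 (-0.24 ± 0.05) fell and Noct rose (0.37 ± 0.08), so 3 of the 11 were called where 9.46% of all genes were. Nampt, an enzyme gene of NAD salvage (0.032 ± 0.006 log2 units per 1% RPS, adjusted p of 0.0181), and the sodium-proton exchanger gene Slc9a3 (0.38 ± 0.09, adjusted p of 0.0372) rose with RPS percent, and neither was called against Dbp or Bmal1. These 2 of the 11 stand beside 2.1% of all genes. This trend was called for 0 of the 11 under the treatment label, without mouse RS10_784, or without both mice with pancreas transcripts. It was called for 1 without mouse RS10_701, RS10_707, RS10_708, RS10_709, RS10_712, RS10_716, RS10_748, RS10_725, RS10_729 or RS10_731. Between single diets edgeR called 0 of the 11. It gave 2, 3 and 1 an unadjusted p under 0.05 at 10, 5 and 2% RPS, beside 15.2, 9.19 and 1.41% of all genes. DESeq2 called 1, 1 and 0, where it called 1.21, 0.156 and 0.00386% of genes. For Slc9a3 the edgeR estimates against 0% RPS were 11.1-fold at 10% RPS and 9.4-fold at 5% (adjusted p of 0.0821 and 0.325). At 2% RPS the estimate was 1.62-fold.

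Transcripts known to respond to temperature or to glucocorticoids were read from 2 short lists, and neither signal was itself measured. Of 6 temperature-responsive genes, 5 were called against Dbp, where 12.3% of all genes were. Cirbp, a cold-inducible RNA-binding protein gene, rose with Dbp (0.24 ± 0.05), and the heat shock genes Hspa1a (-0.75 ± 0.13), Hspa1b (-0.63 ± 0.14), Hsph1 (-0.52 ± 0.10) and Hspa8 (-0.34 ± 0.07) fell. Rbm3 was not called against Dbp (0.02 ± 0.04, edgeR adjusted p of 0.757) or against Bmal1 (-0.08 ± 0.08, edgeR adjusted p of 0.551). Hspa1a and Hspa1b are near-identical copies, so their separate counts are uncertain. Against Bmal1, where 9.46% of all genes were called, the same 5 were called with the opposite signs (1.29 ± 0.26 for Hspa1a, 1.09 ± 0.12 for Hsph1, -0.44 ± 0.10 for Cirbp), but without mouse RS10_721 only 2 were. Of 6 glucocorticoid-responsive genes edgeR called 1, Sgk1, a share near that of all genes (12.3% against Dbp and 9.46% against Bmal1). DESeq2 called 2 against Dbp, where it called 2836 of the 26003 genes fitted. The slope of Sgk1 was -0.42 ± 0.09 against Dbp (edgeR adjusted p of 0.0068) and 0.77 ± 0.17 against Bmal1, where it was not called without mouse RS10_721. Without mouse RS10_717, RS10_718 or RS10_721, edgeR called 2 of the 6 against Dbp. It then called 2037 of 18008, 2047 of 17997 and 1368 of 18095 genes. Neither edgeR nor DESeq2 called any of these 12 genes between diets or for a trend, and 1 (Cirbp, for the trend) had an unadjusted edgeR p under 0.05.

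Across the whole transcriptome, the genes whose pattern was most like that of Dbp were named by r within diets, among genes that averaged 1 CPM or more and as a description with no test. They were Plpp6 (r = 0.95), Slc37a4, the glucose-6-phosphate transporter gene (0.95), Gal3st1 (0.93), Tspan15 (0.92), Nudt16 (0.92) and Ccdc116 (0.92), while Ywhag (-0.93), Zfp664, Larp1, Gramd1a, Unc119b and Rexo4 (-0.91) were most unlike it. Nearest to Bmal1 were Nbeal2 (0.94), Tmem139 (0.93), Gm12829, Ogfod1, Hsph1 and Fem1b (0.91), and most unlike it were Bhlhe41 (-0.94), Thnsl2, Mettl21a, Hlf, Slx1b and Mocs1 (-0.91). Of the genes ranked, the clock components Bhlhe41 and Hlf thus stood among the 6 most opposed to Bmal1. Some of the clock genes left out lay beyond the ranked genes. Within diets, r with Bmal1 was -0.954 for Ciart, -0.945 for Tef and -0.941 for Per3, and r with Dbp was 0.961 for Tef and 0.958 for Nr1d2.

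Posterior Hox genes, taken as markers of position along the hindgut, moved with the clock genes in part, and the position of each piece was not measured. The mean log2 CPM of the 4 posterior Hox genes Hoxa13, Hoxb13, Hoxd12 and Hoxd13 correlated with Per3 at r = 0.71 (permutation p of 1e-05, adjusted p of 0.0009 over 90 pairs) and rho = 0.74 (permutation p of 0.00032), and r was 0.71 without the 2 mice farthest from the median score. By r no other clock gene passed with it. By rho, and by r centred on diet means, 7 of the 10 passed, all but Per1, Per2 and Nr1d1, with rho of 0.71 for Dbp (permutation p of 0.00066) and -0.70 for Bmal1 (permutation p of 0.0008). Mouse RS10_721 had the lowest Hox score, 5.29 against 6.30 to 6.84 in the other 19, and without it and mouse RS10_784 4 passed by r. The summed level of the 4 genes ran from 691 to 900 CPM at 0% RPS, from 685 to 807 CPM at 2%, from 523 to 796 CPM at 5% and from 606 to 705 CPM at 10% RPS. The part of these genes in the clock correlations was not tested. Total count and the scores of smooth muscle, pancreas, lymphocytes, enteric neurons and glia, adipocytes and blood had no adjusted p under 0.05 with any clock gene.

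Exons of 8 of the 10 clock genes overlap those of a gene on the opposite strand. Dbp shares 539 bases with Sphk2 and Nr1d1 shares 1694 bases with Thra. The library kit keeps strand, but whether counting used it is not given in the sources used here, and without it the reads of such a pair cannot be told apart in the overlap. Sphk2 ran from 57.4 to 106 CPM and Thra from 96.1 to 156 CPM over the mice, narrower ranges than the 3.77 to 114 CPM of Dbp and the 123 to 332 CPM of Nr1d1. Over the 20 mice the log2 CPM of Dbp and Sphk2 had r = 0.63, that of Nr1d1 and Thra r = 0.05, and that of Ciart and C920021L13Rik, which share 250 bases, r = 0.56, given as a description. The part of shared reads in these values was not tested.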

How the data were processed

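RNA of 20 DC pieces was sequenced as single-end reads of stranded mRNA libraries. The authors mapped reads to GRCm39 in CLC Genomics Workbench and deposited raw counts per gene and mouse. The annotation release and the handling of multi-mapped reads are not given in the sources used here. Symbols and positions came from GENCODE for GRCm39 (26338 of 26619 IDs matched).

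Counts were filtered (filterByExpr, minimum count 10), scaled by TMM and tested with edgeR 4.0.16 (glmQLFit robust, glmQLFTest) in R 4.3.3, in 1 fit over the 4 diets, with further fits for the linear trend and with diet and log2 CPM of Dbp or Bmal1 (prior count 2). P-values were adjusted by Benjamini-Hochberg over all tested genes. DESeq2 1.42.0 was an alternative. Correlations used 100000 two-sided permutations of mice and were adjusted over 45 pairs of clock genes or 90 pairs of a gene and a measure. Scripts were tested on simulated data. Each mouse is 1 animal and 1 library, mouse numbers pair nothing, and counting error is covered by the spread between mice. Alternatives covered DESeq2, RLE scaling, no filter, prior count 0.5, linear CPM, the treatment label, mice left out and adjustment for total count. The clock genes, the lists and the rule for like genes were chosen with earlier results of these data known. That rule took the 6 highest and 6 lowest r with Dbp and with Bmal1 within diets, outside the 10 clock genes. Of the list of further clock components, 1 gene is not reported here. The omission of the 2 mice with pancreas transcripts was added after seeing the data.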

Additional observations from a re-analysis of the deposited data

Results flagged for a closer look

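The 10 clock genes were tested in the 4 diets, 40 groups of 5 mice, for a mouse far from the other 4 (Dixon's criterion, a gap over 0.71 of the range of the group). Chance gives about 2 such groups in 40, and 2 were found. Per2 was 47.7 CPM in mouse RS10_704 of the 0% RPS group, where the next mouse had 75.3 CPM, and Bmal1 was 67.2 CPM in mouse RS10_721 of the 5% RPS group, where the next had 26.1 CPM. Mouse RS10_721 is also the mouse with the highest pancreas markers (4781 CPM) and the lowest Hox score (5.29).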

How the results depend on the processing

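No paired analysis was possible because each mouse number belongs to a single animal. The count of clock genes called between diets was 0 under every alternative run, except for the trend, where DESeq2 called 1 (Per1) and leaving out mice in turn gave 0 to 1. Against Dbp, 6 to 7 clock genes were called when each mouse was left out, where 1159 to 2682 of all genes were. Against Bmal1, 6 were called each time, where 543 to 2074 of all genes were. Called pairs of clock genes numbered 22 to 27 under the alternatives against 27, and 23 to 30 with each mouse left out. Pairs of a clock gene and a marker score or total count numbered 2, but 7 when centred on diet means, 8 by Spearman's rho, 5 without the 2 mice with pancreas transcripts, and 2 to 10 with each mouse left out (7 without mouse RS10_721 and 10 without mouse RS10_725). The cause was not tested. The slope of Per2 on Dbp, -0.014 with an adjusted p of 0.904, turned to 0.044 under the treatment label, 0.039 without the diet term and 0.023 without the 2 mice with pancreas transcripts, and ran from -0.040 to 0.015 with each mouse left out. On Bmal1 it ran from -0.152 to 0.011. None of these passed. No other slope or diet change of a clock gene at 10% RPS or over the trend changed sign. Ciart, at 2.02 CPM in its lowest mouse, is the member with the fewest counts.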
